A study of Mus musculus with 6 samples.

Results

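The 43 genes described here drive or mark the cell division cycle, and they were taken by symbol from the 54532 genes of the deposited tables. They comprise 8 G1 cyclins and kinases, 4 transcription factors of the E2F and FoxM1 families, 15 genes of DNA replication and nucleotide supply, and 16 genes of mitosis. All 43 symbols were found, each as a single Ensembl gene, in GENCODE M21 on mm10. RNA came from mouse bone marrow-derived macrophages immortalised with retroviruses that carry v-raf and v-myc, with 3 libraries from cells labelled 4-1BBL KO and 3 from WT cells. All 6 samples had received the cytokine IL-4 at 10 ng/ml for 24 hours, so no value is a response to IL-4. 4-1BBL is the TNF family ligand encoded by Tnfsf9. The design text places the deficiency in the mice the cells came from, and it names no Cre, tissue or number of immortalised lines, so genotype and immortalised line cannot be told apart. No label states that replicate libraries came from separate cultures, so p-values here reflect library-to-library spread, which could be purely technical.

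The cycle is driven by cyclins that bind and activate cyclin-dependent kinases. In G1, D-type cyclins with CDK4 or CDK6 begin to phosphorylate the retinoblastoma protein, which releases E2F factors, and cyclin E with CDK2 completes the step into S phase. E2F then switches on replication genes, and later FoxM1 with B-Myb and the DREAM-related MuvB complex switches on mitotic genes. Macrophages from marrow normally divide only with a growth factor and leave the cycle as they mature, whereas cells carrying v-raf and v-myc keep dividing. In bulk RNA, fewer cells in a phase and less RNA per cell cannot be told apart.

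KO-labelled libraries held 19136299 to 26389529 assigned fragments and WT libraries 20742680 to 22264705, as recovered from the FPKM values. FPKM is the number of fragments divided by exon length and by library depth, so levels of different genes can be compared. Tnfsf9 itself was at 10.7, 10.7 and 11.4 FPKM in KO-labelled libraries and at 14.6, 10.4 and 12.0 FPKM in WT libraries. The groups overlapped. A transcript can be counted outside a removed part, and the removed part is not stated, so Tnfsf9 does not check the label. All 10 macrophage markers examined averaged 1 FPKM or more across the 6 libraries, with a summed level of 1361 to 1410 FPKM in KO-labelled and 2302 to 2353 FPKM in WT libraries. They went both ways, with 4 higher (Adgre1, Fcgr1, Mertk and Ptprc), 4 lower (Lyz2, Cd14, Cd68 and Csf1r) and 2 not passing (Itgam and Spi1) in KO-labelled cells. Lyz2, the lysozyme that carries much of the sum, was at 484 ± 32.8 FPKM in KO-labelled and 1207 ± 12.5 FPKM in WT libraries, while Adgre1, which encodes F4/80, was at 268 ± 6.07 FPKM in KO-labelled and 11.8 ± 0.625 FPKM in WT libraries (SD, n = 3). Mertk had 4.17, 4.42 and 4.13 FPKM in KO-labelled libraries, against 0.0216, 0 and 0 FPKM in WT libraries, where it rested on 2 fragments. The part of these marker differences in the results was not tested. Among 28 markers of T cells, B cells, neutrophils, fibroblasts and dendritic cells none reached a mean of 1 FPKM over the 6 libraries, and 12 of them were at 0 in all 6. The B cell gene Cd79b came closest, with 1.77, 1.42 and 1.42 FPKM in KO-labelled and 0.425, 0.202 and 0.0628 FPKM in WT libraries.

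Most of the cell cycle programme was at a similar level in KO-labelled and WT cells, and a few of its genes stood well apart. In KO-labelled cells cyclin D1 transcript was 3.94-fold lower, ribonucleotide reductase subunit Rrm2 2.14-fold lower, cyclin A2 1.90-fold lower and Cdk6 1.83-fold lower, while E2f2 was 1.85-fold higher and Cdk2 1.37-fold higher. Cyclin D2, weakly expressed in WT, was almost absent. The proliferation marker Mki67 and the mitotic cyclin Ccnb1 did not pass the test. These folds are ratios of mean FPKM. Copies of near-identical sequence elsewhere in the genome exist for 10 members, namely Ccnb1, Ccnd3, Cdc6, Cdk6, Mcm7, Mki67, Pcna, Rrm2, Tk1 and Tyms, and make their values less certain.

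Of the 43 genes, 42 had a mean of at least 1 FPKM and were tested, with 429 to 15205 fragments per library, and only Ccnd2 fell below that level. In limma on log2(FPKM + 1), with Benjamini-Hochberg adjustment over all genes tested, 27 of the 42 passed an adjusted p of 0.05, of which 10 were higher and 17 lower in KO-labelled cells. Among all 10843 genes tested 60.8% passed, 30.6% as higher and 30.2% as lower, so the members' share of calls is near that background. Rescaling to TPM, which raises the median of all tested genes by 0.09 on the log2 scale, gave 15 higher and 10 lower, so the balance of directions among small changes depends on the scale. The median log2 fold change was -0.09 over the 42 genes and 0.01 over all genes tested.

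Fold changes of these genes were mostly small. Of the 42 tested genes 30 (71.4%) lay within 1.25-fold between the group means of FPKM, against 44.7% of all tested genes and 51.6% of the 5896 tested genes in the same range of levels. Calls of 1.5-fold or more (on log2(FPKM + 1)) numbered 5 of the 42 (11.9%), namely Ccnd1, Rrm2, Ccna2, Cdk6 and E2f2, against 26.3% of all tested genes. The median fold in either direction was 1.14 for the tested members and 1.30 for all tested genes. KO-labelled and WT libraries were fully separated for 31 of the 42, against 67.4% of all tested genes. Libraries of a group were close to each other, with a median coefficient of variation over the 43 genes of 4.33% in KO-labelled and 3.21% in WT libraries.

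**Figure D1:**
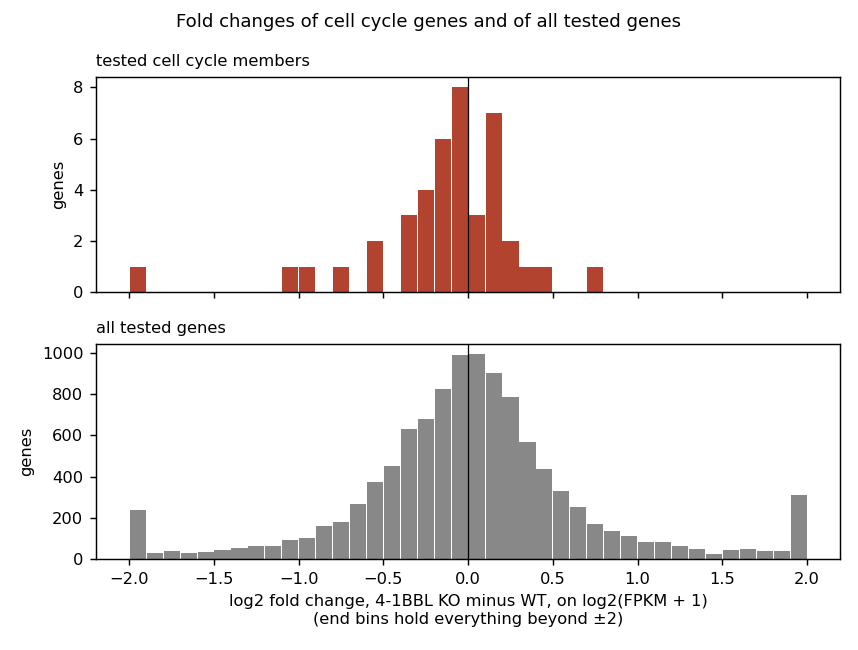
Number of genes in bins of 0.1 of the log2 fold change, KO-labelled minus WT, on log2(FPKM + 1), for the 42 tested cell cycle genes (top) and all 10843 tested genes (bottom), with changes beyond 2 in either direction placed in the end bins. The cell cycle genes crowd around 0 with Ccnd1 alone near -2.

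The promoters of these genes share sequence elements that the choice of genes did not use. RefSeq on GRCm38.p6 gave a promoter for 34 of the 43 genes, 37 in all, and the 250 bases before each start were searched on both strands. The 9 genes without one were Aurkb, Ccna2, Ccnd1, Ccnd2, Ccne2, Foxm1, Gins2, Mcm4 and Tpx2, so some of the largest decreases are missing from the search. The E2F element was searched as TTTCCCGC, TTTCGCGC, TTTGCCGC and TTTGGCGC, the CHR element of late cell cycle genes as TTTGAA and TTCGAA, the NF-Y element as CCAAT, and the E-box bound by Myc family factors as CACGTG. Only 2 pairs of the 84 sites overlapped, both of them E2F sites. CCAAT was found in 12 of 13 mitosis promoters, in 10 of 14 replication promoters and in 2 of 6 G1 promoters, against 33.8% of all 32851 promoters. More than 1 CCAAT was found in 9 of the 13 mitosis promoters, against 10.1% of all. The E2F element was found in 5 of 14 replication promoters against 1.86% of all, and CHR in 7 of 13 mitosis promoters against 17.1% of all. A match describes the letters and shows no binding.

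The next promoters are printed 5′ to 3′ on the gene's strand, with the matched elements in capitals. They show a replication gene with E2F sites that was higher (Mcm6), the G1 kinase that was higher (Cdk2), the replication gene with the largest decrease (Rrm2), and a mitotic gene with many CCAAT and CHR sites (Top2a) beside one with evenly spaced CCAAT sites (Ccnb2). Cdk4 is shown for its 4 E-boxes.

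Cdk2, chr10:128705052-128705301, minus strand: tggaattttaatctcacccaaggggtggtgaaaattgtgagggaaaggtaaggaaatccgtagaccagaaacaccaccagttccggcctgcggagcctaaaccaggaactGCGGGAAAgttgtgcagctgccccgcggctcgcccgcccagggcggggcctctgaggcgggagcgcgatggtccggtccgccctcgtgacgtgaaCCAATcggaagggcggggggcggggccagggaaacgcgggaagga
Cdk4, chr10:127063285-127063534, plus strand: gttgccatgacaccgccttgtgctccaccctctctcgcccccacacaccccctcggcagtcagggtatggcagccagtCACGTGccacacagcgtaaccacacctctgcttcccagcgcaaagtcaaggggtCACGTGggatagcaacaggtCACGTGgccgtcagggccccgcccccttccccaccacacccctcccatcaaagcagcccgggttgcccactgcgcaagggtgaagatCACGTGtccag
Mcm6, chr1:128359706-128359955, minus strand: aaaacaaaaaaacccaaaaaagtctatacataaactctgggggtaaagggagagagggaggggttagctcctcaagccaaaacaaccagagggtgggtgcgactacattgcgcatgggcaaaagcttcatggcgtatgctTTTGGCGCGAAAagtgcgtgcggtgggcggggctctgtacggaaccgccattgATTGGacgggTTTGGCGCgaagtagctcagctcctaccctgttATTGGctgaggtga
Rrm2, chr12:24708004-24708253, plus strand: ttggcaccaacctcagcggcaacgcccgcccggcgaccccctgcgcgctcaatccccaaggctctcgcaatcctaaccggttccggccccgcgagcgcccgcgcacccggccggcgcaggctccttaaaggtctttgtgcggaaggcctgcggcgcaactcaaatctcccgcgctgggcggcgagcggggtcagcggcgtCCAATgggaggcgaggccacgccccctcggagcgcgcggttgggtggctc
Ccnb2, chr9:70421555-70421804, minus strand: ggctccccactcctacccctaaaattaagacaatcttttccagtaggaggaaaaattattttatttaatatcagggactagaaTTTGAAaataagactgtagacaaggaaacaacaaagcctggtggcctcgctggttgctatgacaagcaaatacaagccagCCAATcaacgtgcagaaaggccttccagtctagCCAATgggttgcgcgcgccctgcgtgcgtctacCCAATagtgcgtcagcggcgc
Top2a, chr11:99024190-99024439, minus strand: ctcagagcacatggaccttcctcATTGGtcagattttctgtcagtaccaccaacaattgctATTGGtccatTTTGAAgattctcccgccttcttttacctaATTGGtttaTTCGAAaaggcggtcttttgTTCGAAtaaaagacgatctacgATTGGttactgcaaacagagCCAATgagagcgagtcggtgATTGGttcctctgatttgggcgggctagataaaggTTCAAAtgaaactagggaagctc

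In the G1 group, 2 of 7 tested genes were higher, 2 lower and 3 did not pass, so that 57.1% passed, near the 60.8% of all tested genes. Cyclin D1, the growth-factor-responsive activator of CDK4 and CDK6, had 18.4, 18.0 and 17.4 FPKM in KO-labelled libraries, against 70.1, 69.6 and 72.0 FPKM in WT libraries. The groups are far apart and tight within themselves. The log2 fold change of Ccnd1 was -1.92 ± 0.04 (SE), with a limma adjusted p of 8.75e-08 (Benjamini-Hochberg), and the lowest and highest values over 13 alternatives were -1.97 and -1.87. Ccnd1 lies on chromosome 7 at 144929931 to 144939925 on the minus strand, and 23.4% of its exon length overlaps LTO1 on the opposite strand, which was at 1.70 ± 0.139 FPKM in KO-labelled and 1.39 ± 0.333 FPKM in WT libraries (SD, n = 3).

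Cyclin D2, on chromosome 6 at 127125162 to 127152193, had 1, 7 and 4 fragments in KO-labelled libraries, against 167, 209 and 205 fragments in WT libraries. On the FPKM scale these were 0.00403, 0.0378 and 0.0222 in KO-labelled libraries and 0.831, 1.07 and 0.979 in WT libraries. With fragments pooled over the libraries of a group and divided by depth, Ccnd2 was 49.1-fold lower in KO-labelled cells, with an exact 95% interval of 27.9 to 95.5 that covers counting error only. Its mean was under the level set for testing. Without the filter it passed, with a limma adjusted p of 0.000145 (Benjamini-Hochberg).

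Cyclin D3, the third D-type cyclin, had 9.89, 8.22 and 8.33 FPKM in KO-labelled and 9.50, 7.99 and 8.98 FPKM in WT libraries. The libraries interleave, and the 95% interval of its log2 fold change runs from -0.22 to 0.21 with a limma adjusted p of 0.986 (Benjamini-Hochberg). The make-up of the D-type cyclins therefore differed. Ccnd1 made up 65.0, 68.5 and 67.6% of their summed FPKM in KO-labelled libraries and 87.2, 88.5 and 87.9% in WT libraries, while Ccnd3 made up 34.9, 31.3 and 32.3% in KO-labelled and 11.8, 10.2 and 11.0% in WT libraries. In fragments not divided by length, Ccnd1 took 52.2 ± 2.02% in KO-labelled and 79.4 ± 0.989% in WT libraries (SD, n = 3), so the shares depend on the lengths used but the order of the groups is the same. Summed over the 8 G1 genes, the level was 205 ± 9.84 FPKM in KO-labelled and 272 ± 6.01 FPKM in WT libraries.

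**Figure D2:**
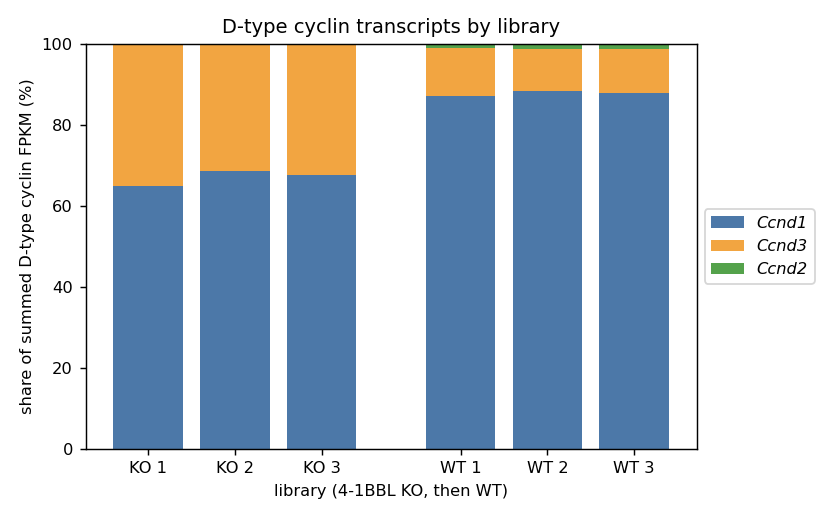
Share of each D-type cyclin in the summed FPKM of Ccnd1, Ccnd2 and Ccnd3 (vertical axis, percent) in each of the 3 KO-labelled and 3 WT libraries. Ccnd3 takes 31.3 to 34.9% in KO-labelled libraries and 10.2 to 11.8% in WT libraries.

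The G1 kinases differed among themselves. Cdk6, a partner of the D-type cyclins, had 4.86, 4.83 and 5.70 FPKM in KO-labelled and 9.32, 10.3 and 8.52 FPKM in WT libraries, with a log2 fold change of -0.76 ± 0.09 (SE) and a limma adjusted p of 0.000296 (Benjamini-Hochberg). Cdk4, the other partner and the most abundant transcript of the G1 group, had 112, 110.4 and 127 FPKM in KO-labelled and 128, 129 and 136 FPKM in WT libraries. All 3 KO-labelled values of Cdk4 were below the WT values, but KO-labelled replicate 3 came within 1 FPKM of WT. Cdk4 did not pass (limma adjusted p = 0.0539, Benjamini-Hochberg), and passed without KO-labelled replicate 3 (0.00325), with a stricter filter on low values (0.047) or with voom on recovered fragments (0.0264). Cdk4 also passed with replicate number added as a block. Its exons overlap those of Tspan31, which runs in the opposite direction, over 19.7% of their length.

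Cdk2, the kinase partner of cyclins E and A, was in the opposite direction. It had 17.2, 17.0 and 16.1 FPKM in KO-labelled and 12.8, 11.7 and 12.3 FPKM in WT libraries, a log2 fold change of 0.42 ± 0.05 (SE) with a limma adjusted p of 0.000509 (Benjamini-Hochberg). Every KO-labelled library was above every WT library. Of its cyclins, the cyclin E genes differed little, while the cyclin A gene Ccna2 was 1.90-fold lower in KO-labelled cells. Ccne1 had 22.4, 20.8 and 22.2 FPKM in KO-labelled and 21.3, 23.2 and 24.5 FPKM in WT libraries, and did not pass. Ccne2 had 18.6, 17.4 and 19.0 FPKM in KO-labelled and 16.8, 16.6 and 16.0 FPKM in WT libraries, with no overlap of the groups. Of its exon length 17.4% overlaps Ints8 on the opposite strand. Ccne2 passed narrowly (limma adjusted p = 0.0411, Benjamini-Hochberg) and did not pass when KO-labelled replicate 1 or 3 or any WT replicate was left out, with adjusted p of 0.0715 to 0.123, nor after quantile normalization (0.0697). With replicate number added as a block Ccne2 did not pass either.

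**Figure D3:**
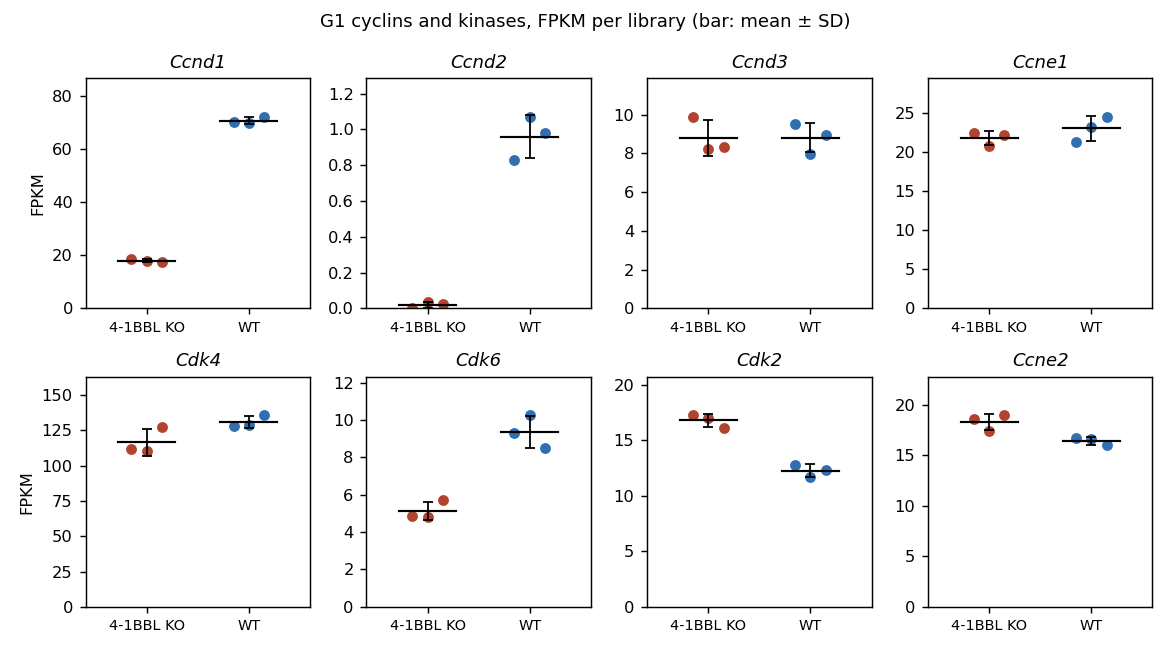
FPKM (vertical axes, from 0) of the 8 G1 cyclins and kinases in each library, with the 3 KO-labelled libraries left and the 3 WT libraries right in each panel, points for libraries and black bars for mean ± SD. Ccnd1, Ccnd2 and Cdk6 are lower and Cdk2 is higher in KO-labelled libraries, and Ccnd3 and Ccne1 overlap.

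Among the 4 transcription factors 2 were higher, none lower and 2 did not pass, so that 50% passed, against 60.8% of all tested genes. E2f2, an activator of S phase genes, had 11.4, 10.5 and 10.6 FPKM in KO-labelled and 5.36, 6.52 and 5.69 FPKM in WT libraries. Its log2 fold change was 0.79 ± 0.08 (SE), with a limma adjusted p of 0.00011 (Benjamini-Hochberg), the largest increase among the 42 tested genes. E2f1, another activator, had 19.0, 21.0 and 18.4 FPKM in KO-labelled and 18.7, 20.9 and 19.9 FPKM in WT libraries, so the groups interleave. E2f3, of the same family but not a member, was higher and was named after its values were seen. It was at 9.47 ± 1.10 FPKM in KO-labelled and 7.61 ± 0.199 FPKM in WT libraries (SD, n = 3), with a limma adjusted p of 0.0247 (Benjamini-Hochberg). The ratio of E2f2 to E2f1 FPKM was 0.559 ± 0.0511 in KO-labelled and 0.295 ± 0.0147 in WT libraries (SD, n = 3). E2f8, an atypical E2F that represses E2F targets, had 14.0, 13.2 and 12.9 FPKM in KO-labelled and 12.1, 11.6 and 11.8 FPKM in WT libraries. It passed (limma adjusted p = 0.0284, Benjamini-Hochberg), and missed the threshold without KO-labelled replicate 1 or 2 or any WT replicate, with adjusted p of 0.053 to 0.0842, and after quantile normalization (0.0796). With replicate number added as a block E2f8 missed it too. E2f7, the other atypical E2F and not a member, went the other way and was named after its values were seen. It was at 0.834 ± 0.205 FPKM in KO-labelled and 2.09 ± 0.145 FPKM in WT libraries (SD, n = 3), with a limma adjusted p of 0.00105 (Benjamini-Hochberg). Foxm1, the activator of mitotic genes, had 17.1, 17.7 and 18.0 FPKM in KO-labelled and 18.4, 19.7 and 18.6 FPKM in WT libraries, and did not pass (limma adjusted p = 0.122, Benjamini-Hochberg).

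Of the 15 replication genes 4 were higher, 7 lower and 4 did not pass, or 7 higher and 4 lower after rescaling to TPM. On the FPKM scale 73.3% of the replication genes passed, against 60.8% of all tested genes. The 4 largest changes were decreases, in Rrm2, Pcna, Tk1 and Orc1. Rrm2, the inducible small subunit of ribonucleotide reductase, which makes deoxyribonucleotides, had 58.2, 59.2 and 58.9 FPKM in KO-labelled and 121, 131 and 125 FPKM in WT libraries. Its log2 fold change was -1.08 ± 0.04 (SE), with a limma adjusted p of 1.44e-06 (Benjamini-Hochberg). Rrm2 lies on chromosome 12 at 24708241 to 24714146. Rrm1, the large subunit of the same enzyme, had 35.8 ± 2.12 FPKM in KO-labelled and 40.7 ± 0.318 FPKM in WT libraries (SD, n = 3), so the ratio of Rrm2 to Rrm1 was 1.69, 1.71 and 1.54 in KO-labelled and 2.98, 3.24 and 3.03 in WT libraries. Rrm1 itself passed narrowly (limma adjusted p = 0.0189, Benjamini-Hochberg) and did not pass after rescaling to TPM (0.221) or quantile normalization (0.0562), nor without KO-labelled replicate 1 or 2 or any WT replicate (0.0505 to 0.0661).

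Pcna, the clamp that holds polymerases on DNA and the most abundant of the 43 transcripts, had 162, 160.1 and 156 FPKM in KO-labelled and 233, 236 and 238 FPKM in WT libraries, with a log2 fold change of -0.56 ± 0.04 (SE) and a limma adjusted p of 1.30e-05 (Benjamini-Hochberg). Tk1, the thymidine salvage kinase, had 18.1, 17.8 and 16.7 FPKM in KO-labelled and 25.5, 25.6 and 24.9 FPKM in WT libraries, with a log2 fold change of -0.51 ± 0.05 (SE) and a limma adjusted p of 0.000108 (Benjamini-Hochberg). For Pcna and Tk1 no KO-labelled library reached the WT range. Each has a near-identical copy in the genome, Pcna-ps2 at a mean of 2.03 FPKM and Gm6091 at 3.15 FPKM, and how the counting divided their fragments is not given in the sources used here. Tyms, which makes thymidylate from scratch, went the other way from Tk1. Tyms had 10.3, 10.7 and 10.6 FPKM in KO-labelled and 9.39, 9.37 and 9.04 FPKM in WT libraries (limma adjusted p = 0.0185, Benjamini-Hochberg), and missed the threshold without KO-labelled replicate 2 (0.0623) or WT replicate 3 (0.063). With replicate number added as a block Tyms missed it too.

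The subunits of the MCM helicase, the ring that opens DNA at origins, split. Mcm4 had 63.7, 69.3 and 73.6 FPKM in KO-labelled and 61.4, 59.1 and 57.9 FPKM in WT libraries, and Mcm6 had 84.9, 88.9 and 89.5 FPKM in KO-labelled and 76.7, 76.6 and 75.8 FPKM in WT libraries. Mcm7 was at 71.8 ± 0.342 FPKM in KO-labelled and 64.8 ± 1.11 FPKM in WT libraries (SD, n = 3). These 3 genes, whose proteins form the helicase core, were higher in KO-labelled cells, with log2 fold changes of 0.21, 0.20 and 0.15 for Mcm4, Mcm6 and Mcm7 and limma adjusted p of 0.0212, 0.0038 and 0.011 in the same order (Benjamini-Hochberg). Mcm2 was at 38.1 ± 1.06 FPKM in KO-labelled and 44.0 ± 0.298 FPKM in WT libraries, and Mcm5 at 83.0 ± 6.37 FPKM in KO-labelled and 97.6 ± 2.03 FPKM in WT libraries (SD, n = 3). Both were lower (limma adjusted p of 0.00416 for Mcm2 and 0.0125 for Mcm5, Benjamini-Hochberg), but did not pass after rescaling to TPM (0.0691 for Mcm2 and 0.0522 for Mcm5), and Mcm5 did not pass after quantile normalization (0.14). Mcm3 did not pass, at 93.0 ± 2.27 FPKM in KO-labelled and 96.4 ± 2.44 FPKM in WT libraries. The grouping into core and other subunits was made after the values were seen. Mcm4 also did not pass without KO-labelled replicate 2 or WT replicate 2 or 3, with adjusted p of 0.0626 to 0.0712, nor with replicate number added as a block. Of the exon length of Mcm7, 8.7% overlaps Ap4m1 and Cops6 on the opposite strand. Summed over the 6 subunits, the level was 442 ± 1.91 FPKM in KO-labelled and 439 ± 6.42 FPKM in WT libraries, a ratio of 1.01.

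Of the 4 listed genes that load or activate the helicase at origins, Orc1, Cdc6, Cdt1 and Gins2, Orc1 passed. Orc1, of the origin recognition complex, was lower, at 6.91 ± 0.409 FPKM in KO-labelled and 9.17 ± 0.481 FPKM in WT libraries (SD, n = 3), with a limma adjusted p of 0.0025 (Benjamini-Hochberg). The loading factors Cdc6, at 11.5 ± 0.424 FPKM in KO-labelled and 10.5 ± 0.441 FPKM in WT libraries, and Cdt1, at 67.0 ± 5.10 FPKM in KO-labelled and 60.3 ± 1.94 FPKM in WT libraries, did not pass. Cdt1 passed without KO-labelled replicate 3, with an adjusted p of 0.00583, with voom on recovered fragments (0.0147), after quantile normalization (0.0102) and after rescaling to TPM (0.0118), as higher in each. Cdc6 and Gins2 also passed as higher after rescaling to TPM. Gins2, of the GINS complex that activates the helicase, did not pass either, at 9.72 ± 0.211 FPKM in KO-labelled and 9.13 ± 0.514 FPKM in WT libraries. Its value is uncertain, since 67.3% of its exon length overlaps Gse1 on the opposite strand, which was at 5.88 ± 0.595 FPKM in KO-labelled and 3.77 ± 0.139 FPKM in WT libraries.

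Of the 16 mitosis genes 2 were higher, 8 lower and 6 did not pass, or 4 higher and 4 lower after rescaling to TPM and 4 higher and 7 lower after quantile normalization. On the FPKM scale 62.5% of the mitosis genes passed, near the 60.8% of all tested genes, of which 30.6% were higher and 30.2% lower. Cyclin A2, which acts in S phase with CDK2 and later with CDK1, stood apart from the rest. Ccna2 had 27.8, 29.2 and 32.0 FPKM in KO-labelled and 56.9, 57.4 and 55.2 FPKM in WT libraries, with a log2 fold change of -0.91 ± 0.06 (SE) and a limma adjusted p of 1.42e-05 (Benjamini-Hochberg). Ccna2 lies on chromosome 3 at 36564865 to 36572150, and 12.5% of its exon length overlaps Exosc9 on the opposite strand, which was at 3.82 ± 0.3 FPKM in KO-labelled and 7.83 ± 0.392 FPKM in WT libraries (SD, n = 3). The B-type cyclins, which take cells into mitosis with CDK1, did not pass. Ccnb1 was at 61.0 ± 2.73 FPKM in KO-labelled and 61.9 ± 0.392 FPKM in WT libraries, and Ccnb2 at 76.5 ± 1.80 FPKM in KO-labelled and 72.2 ± 0.728 FPKM in WT libraries (SD, n = 3). The ratio of Ccna2 to Ccnb2 was 0.363, 0.391 and 0.408 in KO-labelled and 0.789, 0.803 and 0.757 in WT libraries, with no overlap. Cdk1 was lower, at 28.2 ± 0.398 FPKM in KO-labelled and 32.2 ± 1.80 FPKM in WT libraries (limma adjusted p = 0.0181, Benjamini-Hochberg), but did not pass without KO-labelled replicate 2 (0.0598) or WT replicate 2 (0.0523).

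Plk1 and Aurka, kinases that build the spindle, were lower. Plk1, the polo kinase of mitotic entry and spindle assembly, had 43.5, 43.3 and 37.8 FPKM in KO-labelled and 53.5, 51.7 and 58.3 FPKM in WT libraries. Aurka, the centrosomal Aurora kinase, had 47.1, 48.7 and 52.0 FPKM in KO-labelled and 65.8, 63.6 and 61.9 FPKM in WT libraries. Neither gene overlapped between the groups, and their log2 fold changes were -0.38 ± 0.07 for Plk1 and -0.37 ± 0.05 for Aurka (SE), with limma adjusted p of 0.00311 for Plk1 and 0.000727 for Aurka (Benjamini-Hochberg). Tpx2, the activator of Aurora A on the spindle, was also lower, at 40.5 ± 1.00 FPKM in KO-labelled and 46.8 ± 1.43 FPKM in WT libraries. Aurkb, the kinase of the chromosomal passenger complex, did not pass, at 41.1 ± 2.35 FPKM in KO-labelled and 45.9 ± 2.93 FPKM in WT libraries, whereas Birc5, the survivin subunit of that complex, was higher, with 29.4, 30.8 and 32.8 FPKM in KO-labelled and 26.2, 24.3 and 27.0 FPKM in WT libraries (limma adjusted p = 0.0101, Benjamini-Hochberg). Aurkb passed without KO-labelled replicate 1 (adjusted p = 0.0381) or WT replicate 1 (0.0392).

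Kif11, the motor that pushes spindle poles apart, was the largest increase in this group, with 44.8, 48.2 and 49.5 FPKM in KO-labelled and 39.1, 36.7 and 37.4 FPKM in WT libraries, a log2 fold change of 0.32 ± 0.05 (SE) and a limma adjusted p of 0.00152 (Benjamini-Hochberg). Among spindle checkpoint genes, Bub1b was lower, at 62.4 ± 1.37 FPKM in KO-labelled and 75.7 ± 2.16 FPKM in WT libraries (limma adjusted p = 0.00107, Benjamini-Hochberg), while Bub1 did not pass, at 46.4 ± 4.81 FPKM in KO-labelled and 49.5 ± 2.61 FPKM in WT libraries. Bub1 passed without KO-labelled replicate 3 (adjusted p = 0.0389). Cdc20, which the checkpoint restrains, had 103, 101 and 93.0 FPKM in KO-labelled and 97.5, 90.9 and 90.6 FPKM in WT libraries. The groups overlapped and Cdc20 did not pass, except without KO-labelled replicate 3 (adjusted p = 0.0411) or with a changed scale.

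The widely used proliferation marker Mki67 was at 39.8 ± 0.760 FPKM in KO-labelled and 40.6 ± 1.98 FPKM in WT libraries (SD, n = 3). The libraries of Mki67 interleave, and the 95% interval of its log2 fold change runs from -0.15 to 0.09. Top2a, the topoisomerase that untangles sister chromatids, was lower, at 65.9 ± 1.78 FPKM in KO-labelled and 73.4 ± 1.95 FPKM in WT libraries (limma adjusted p = 0.0166, Benjamini-Hochberg), and did not pass without WT replicate 1 (0.0601) or with replicate number added as a block. Cenpa, the histone of centromeres, was lower too, at 18.8 ± 0.271 FPKM in KO-labelled and 21.4 ± 0.318 FPKM in WT libraries (limma adjusted p = 0.00828, Benjamini-Hochberg). After rescaling to TPM, Top2a, Cenpa, Cdk1 and Tpx2 did not pass, with limma adjusted p of 0.0768 to 0.333 (Benjamini-Hochberg), and Top2a did not pass after quantile normalization either (0.452). After rescaling to TPM, Ccnb2 and Cdc20 passed as higher, with limma adjusted p of 0.00938 for Ccnb2 and 0.0225 for Cdc20 (Benjamini-Hochberg). Summed over the 16 genes, the level was 779 ± 7.25 FPKM in KO-labelled and 851 ± 6.39 FPKM in WT libraries. FPKM summed over all genes was also lower, at 286101 to 295164 in KO-labelled and 306046 to 312801 in WT libraries. The gap in this sum therefore depends on the scale, as do the sums over the G1 genes and the MCM subunits.

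**Figure D4:**
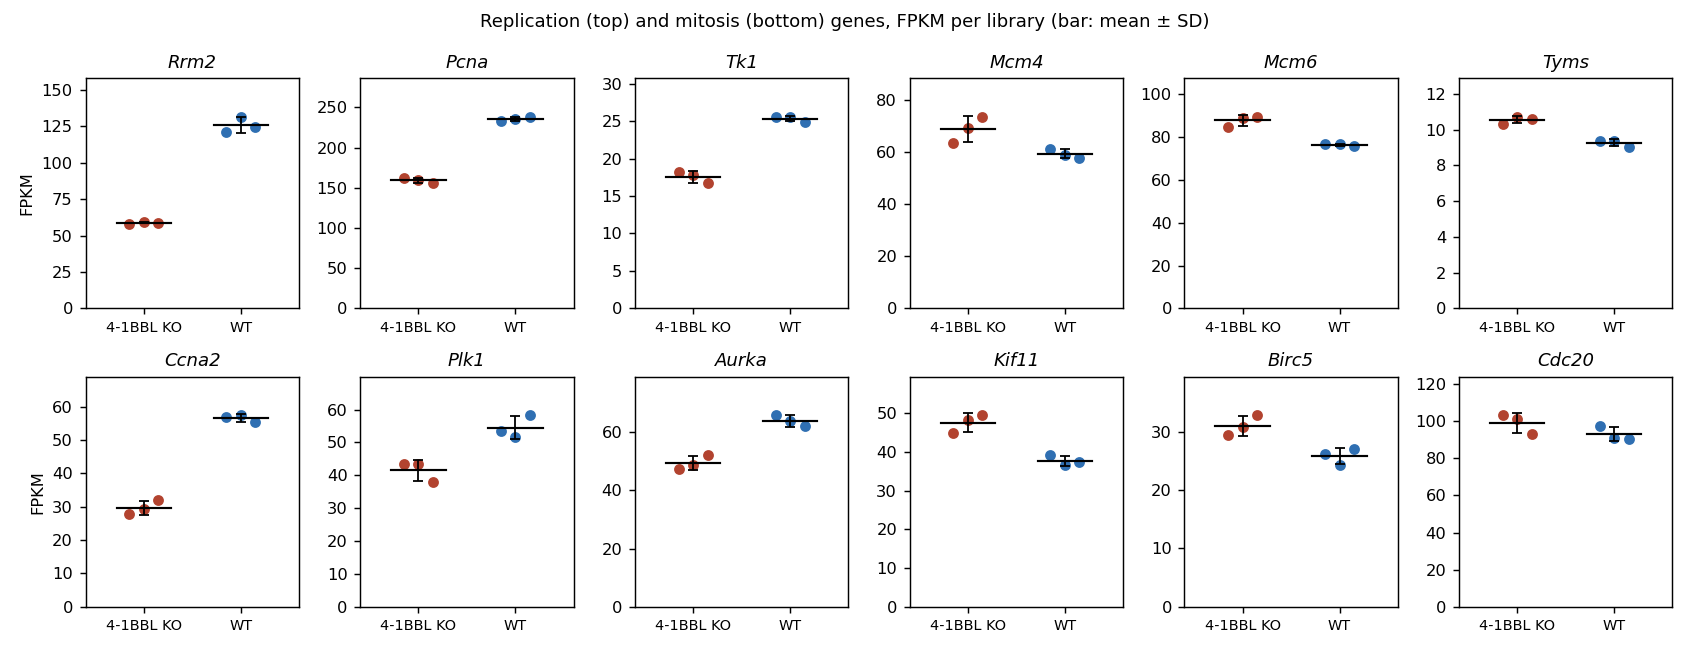
FPKM (vertical axes, from 0) in each library of the 3 replication genes with the largest decrease and the 3 with the largest increase (top row) and of the corresponding mitosis genes (bottom row), with KO-labelled libraries left and WT libraries right in each panel, points for libraries and black bars for mean ± SD. Rrm2 and Ccna2 show the widest gaps, and Cdc20 overlaps between the groups.

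**Figure D5:**
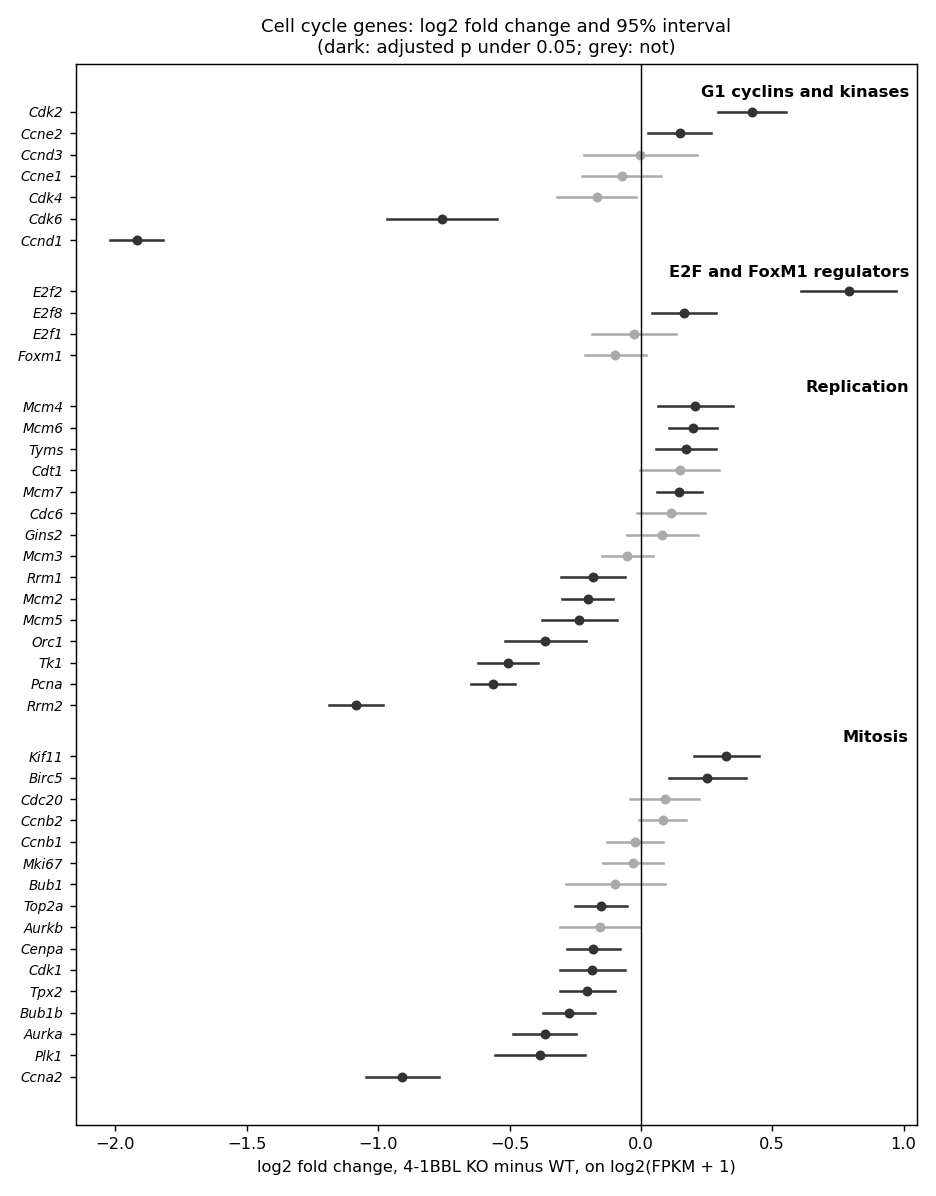
Log2 fold change, KO-labelled minus WT, on log2(FPKM + 1) (horizontal axis) with its 95% interval from limma for the 42 tested genes, grouped by role and ordered by size, dark where the adjusted p was below 0.05. Ccnd1, Rrm2, Ccna2 and Cdk6 lie farthest to the left and E2f2 farthest to the right.

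The number of matches can be set beside the changes. Top2a holds 6 CCAAT and 4 CHR sites and was slightly lower in KO-labelled cells, Ccnb2 holds 3 CCAAT and 1 CHR site and did not pass, and Kif11, whose promoter is not printed and holds 1 of each, was higher. Rrm2 holds a single CCAAT and no E2F match in this window. The 7 promoters with an E2F match went with changes in both directions. Cdk2 (1 match), Mcm6 (3) and Mcm7 (1) were higher, Mcm5 (2), Orc1 (1) and Cdk1 (1) were lower, and Cdc6 (1) did not pass. Cdk4 holds 4 E-boxes and did not pass, Cdk6 holds 1 and was lower, and Tyms holds 1 and was higher. The endogenous Myc family genes Mycn and Myc also differed between the groups. Mycn was at 0.0301 ± 0.0289 FPKM in KO-labelled and 280.4 ± 4.53 FPKM in WT libraries, and Myc at 1.10 ± 0.390 FPKM in KO-labelled and 12.3 ± 1.83 FPKM in WT libraries (SD, n = 3). The retroviral v-myc was not analysed here, and a part of the Myc family levels in the values of the cell cycle genes was not tested.

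Of 30 other genes that control G1, 27 were tested, with 7 higher, 10 lower and 10 not passing, so that 63.0% passed, near the 60.8% of all tested genes. Cdkn1a, which encodes the p21 inhibitor, had 9.41, 11.0 and 11.1 FPKM in KO-labelled and 38.0, 41.5 and 38.4 FPKM in WT libraries, 3.74-fold lower, with a log2 fold change of -1.81 ± 0.07 (SE). Cdkn2c and Cdkn2d, of the INK4 family that blocks CDK4 and CDK6, were lower as well. Cdkn2c was at 6.91 ± 0.643 FPKM in KO-labelled and 11.3 ± 0.810 FPKM in WT libraries, and Cdkn2d at 10.2 ± 1.74 FPKM in KO-labelled and 17.3 ± 2.82 FPKM in WT libraries (SD, n = 3). Both were named after their values were seen. The other INK4 genes Cdkn2a and Cdkn2b had 0 fragments in all 6 libraries, which allows up to 0.134 and 0.113 FPKM per library at a floor of 3 fragments (counting error only). Cdkn1b, the p27 inhibitor, did not pass, at 13.4 ± 1.00 FPKM in KO-labelled and 12.2 ± 0.925 FPKM in WT libraries.

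Within the same list the 2 largest increases were Mybl2, the B-Myb factor that works with FoxM1, and Rbl2, a pocket protein of quiescent cells whose exons overlap Aktip over 9.17% of their length. Mybl2 was at 52.0 ± 3.07 FPKM in KO-labelled and 35.3 ± 0.734 FPKM in WT libraries, and Rbl2 at 5.20 ± 0.258 FPKM in KO-labelled and 3.66 ± 0.224 FPKM in WT libraries (SD, n = 3). Rbl1, the pocket protein of cycling cells, was lower, at 13.1 ± 1.51 FPKM in KO-labelled and 20.5 ± 0.743 FPKM in WT libraries, and was named after its values were seen. Mnat1, of the CDK-activating kinase, was at 3.71 ± 0.482 FPKM in KO-labelled and 7.99 ± 0.547 FPKM in WT libraries. The highest limma adjusted p among these 4 genes was 0.00188 (Benjamini-Hochberg).

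Of 46 other replication genes, all tested, 10 were higher, 11 lower and 25 did not pass, so that 45.7% passed against 60.8% of all tested genes, or 18 higher and 9 lower after rescaling to TPM. Dck, the salvage kinase for deoxycytidine, was at 38.4 ± 2.43 FPKM in KO-labelled and 22.8 ± 1.67 FPKM in WT libraries, and Mcm10, a helicase activation factor, at 15.5 ± 1.43 FPKM in KO-labelled and 9.99 ± 0.396 FPKM in WT libraries (SD, n = 3). Gins3, a partner of Gins2, was at 7.22 ± 0.599 FPKM in KO-labelled and 16.3 ± 1.34 FPKM in WT libraries, and Wdhd1, which links helicase and polymerase and has a near-identical copy in Gm17052, at 7.97 ± 0.205 FPKM in KO-labelled and 12.0 ± 0.288 FPKM in WT libraries. These 4 were the 2 largest increases and the 2 largest decreases, and the highest of their limma adjusted p values was 0.000437 (Benjamini-Hochberg).

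Of 65 other mitosis genes, all tested, 11 were higher, 25 lower and 29 did not pass, so that 55.4% passed against 60.8% of all tested genes. Pttg1, the securin that holds back separase, showed the largest decrease, at 8.88 ± 1.01 FPKM in KO-labelled and 26.7 ± 1.63 FPKM in WT libraries, 3.01-fold lower. Cdc25c, a phosphatase that activates CDK1, was at 6.36 ± 1.38 FPKM in KO-labelled and 12.6 ± 1.77 FPKM in WT libraries (SD, n = 3). The largest increases were Cenpk, of the centromere, at 3.45 ± 0.309 FPKM in KO-labelled and 2.34 ± 0.287 FPKM in WT libraries, and Cdca5, the sororin that protects cohesion, at 26.4 ± 1.85 FPKM in KO-labelled and 19.7 ± 1.26 FPKM in WT libraries. The highest limma adjusted p among these 4 genes was 0.00799 (Benjamini-Hochberg). The median log2 fold changes of the 3 lists of other genes were -0.06 for G1 control, 0.06 for replication and -0.06 for mitosis.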

How the data were processed

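Poly(A)-selected RNA was sequenced in 6 libraries, per the labels. Reads were aligned to mm10 with HISAT2 2.0.5 and counted with featureCounts 1.5.0-p3, per the submitters' processing notes, and the authors deposited FPKM per gene for each library. Not given in the sources used here are the annotation release, the strand setting and how reads with several matches were handled. FPKM times GENCODE M21 exon length gave whole fragment numbers within 0.1 for about 98% of values up to 200 fragments, against 20% by chance, and hence the depth.

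Genes averaging 1 FPKM or more were compared between the 3 KO-labelled and 3 WT libraries with limma 3.58.1 (R 4.3.3, eBayes with a trend) on log2(FPKM + 1), a scale that understates changes of low genes. P-values were adjusted by Benjamini-Hochberg over all 10843 genes tested, at a threshold of 0.05. The interval of the Ccnd2 ratio and the floors cover counting error only. Near-identical copies were searched with BLAST+ 2.17.0+. The test was also run on simulated libraries in which far fewer genes changed than were called here. That run therefore gives no error rate for the calls made here.

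All 43 members are named. Values in every library are given for the 3 largest increases and the 3 largest decreases in each role, and for all G1 genes and regulators. From each list of other genes the 2 largest called changes in each direction are named. The members and lists were chosen with earlier results of these data known. Alternatives were another pseudocount, other filters, TPM, quantile normalization, a replicate block, voom on recovered fragments, each library left out, members with copies left out, and fragments not divided by length.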

Additional observations from a re-analysis of the deposited data

How the results depend on the processing

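Of the 27 called cell cycle genes 16 were called in the same direction in all 13 alternatives, 6 as higher (Cdk2, E2f2, Mcm6, Mcm7, Birc5 and Kif11) and 10 as lower (Ccnd1, Cdk6, Pcna, Orc1, Rrm2, Tk1, Ccna2, Plk1, Aurka and Bub1b), and none reversed. Of the 15 not called, 8 passed in some alternative. The counts that moved by over 1.5 times follow, and the cause was not tested unless stated. TPM gave 10 members lower, against 17, with replication at 7 higher and 4 lower, mitosis at 4 higher and 4 lower, and other replication genes at 18 higher. Quantile normalization gave 1 G1 gene, 1 regulator and 4 mitosis genes higher. The filter removed, with 20848 genes tested in place of 10843, gave 4 other G1 control genes higher, against 7. Leaving out members with near-identical copies, which are then not counted, gave 1 G1 gene lower, and 2 replication genes higher and 4 lower. The replicate block gave 6 members higher, against 10, and 1 G1 gene, 1 regulator and 2 replication genes higher. Deviations of same-numbered libraries correlated at -0.03, 0.05 and -0.03, so no shared replicate effect was seen. Whether same-numbered libraries were handled together is not given in the labels.

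With each library left out, 6 to 11 members were higher (6 without WT replicate 3), 1 to 2 G1 genes (1 when any library other than KO-labelled replicate 2 was left out), 1 to 2 regulators (1 when any other than KO-labelled replicate 3 was left out), 2 to 5 replication genes (2 without KO-labelled replicate 2 or WT replicate 3) and 3 to 6 other G1 control genes (3 without KO-labelled replicate 3 or WT replicate 3, 4 without replicate 2 of either group), in fits with fewer libraries. The members lower ranged from 15 to 19. Genes that changed sign had not passed: on the log2 scale, TPM gave Ccnd3 0.0889, Ccne1 0.0175, E2f1 0.0666, Mcm3 0.0427, Ccnb1 0.0706 and Mki67 0.0636; quantile normalization gave Mcm3 0.0687, Ccnb1 0.0858 and Mki67 0.0201; voom gave Ccnd3 0.0383, E2f1 6.95e-05 and Ccnb1 0.0036. With each library left out, Ccnd3 ranged from -0.0795 to 0.0473, E2f1 from -0.079 to 0.0113 and Mki67 from -0.0534 to 0.00913.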

Other observations

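Cyclin and CDK genes outside the lists were chosen by symbol after values were seen. Of 29 such genes 25 were tested, with 6 higher, 6 lower and 13 not passing, so that 48% passed, against 60.8% of all tested genes. Ccng2, an atypical cyclin linked to cell cycle exit, had 9.75, 10.3 and 10.6 FPKM in KO-labelled and 3.80, 5.14 and 3.37 FPKM in WT libraries (limma adjusted p = 0.000204, Benjamini-Hochberg). Ccng1, its relative and a p53 target, went the other way, with 22.9, 20.7 and 21.7 FPKM in KO-labelled and 45.8, 45.3 and 45.3 FPKM in WT libraries (limma adjusted p = 3.05e-06, Benjamini-Hochberg). Among kinases, Cdk18 was at 32.0 ± 2.25 FPKM in KO-labelled and 18.7 ± 1.19 FPKM in WT libraries, and Cdk20 at 2.02 ± 0.200 FPKM in KO-labelled and 0.891 ± 0.164 FPKM in WT libraries (SD, n = 3). Cdk19, of the Mediator complex, was at 6.92 ± 0.262 FPKM in KO-labelled and 4.46 ± 0.446 FPKM in WT libraries, while its partner Ccnc was lower, at 6.71 ± 0.726 FPKM in KO-labelled and 9.25 ± 1.11 FPKM in WT libraries. Cdk8, the near relative of Cdk19, was at 7.57 ± 0.136 FPKM in KO-labelled and 8.59 ± 0.541 FPKM in WT libraries and did not pass (limma adjusted p = 0.0519, Benjamini-Hochberg). The germ cell cyclins Ccna1 and Ccnb3 were at 0 in all 6 libraries.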
